A study of Homo sapiens with 9 samples.

Results

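The MYC and MAX network was described here by 8 transcription factor genes, chosen by gene name among the 61552 genes listed for each library: MYC, MAX, MXD1, MXD3, MXD4, MXI1, MNT and MGA. All 8 were detected in every library, each with at least 392 reads, and all 8 passed the filter on low values that left 16570 genes for testing. The cells were MDA-MB-231, a long-established line from a human triple-negative breast cancer with mesenchymal traits, labelled WT and grown in serum-containing DMEM. The control cells received phosphate-buffered saline with 0 mM 2-DG, and the treated cells received 10 mM or 20 mM 2-DG, all for 24 h, with 3 libraries in each condition. 2-Deoxy-D-glucose (2-DG) is a glucose analog that enters cells and slows glycolysis. The labels do not say that the 3 libraries of a condition came from separate cultures, so p-values here measure the spread between these libraries, which may be technical.

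MYC drives growth, ribosome production and metabolism as a heterodimer with MAX, its obligate partner, which binds the E-box. The MXD proteins (MXD1, MXD3, MXD4 and MXI1, also called MXD2) and MNT pair with MAX as well and bind the same sites, but recruit the SIN3 and histone deacetylase corepressor and so oppose MYC. MGA is a large MAX partner that belongs to a variant Polycomb complex, PRC1.6. In many tissues MXD1 rises as cells differentiate or stop dividing, whereas MXD3 is found mainly in dividing cells. MYC itself is often amplified or highly expressed in triple-negative tumors.

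The E-box letters are shown because they are the site that MYC-MAX and MXD-MAX dimers share. RefSeq promoter windows (GRCh38.p14, 250 bases before to 50 after the start site) were found for 7 of the 8 genes, 12 windows in all. MYC had no window and was not searched. The windows were searched on both strands for CACGTG, which reads the same on either strand, and for CACGCG, whose reverse complement CGCGTG was searched too. The first was in 2 of the 12 windows, against 7.26% of the 35116 windows of all genes, at position -238 from the start of MXD4 and -193 from that of MNT. The second was in 3 of the 12 windows, those of MXD3, MXI1 and MGA, against 11.4% of all windows. The same stretch, from 250 to 186 bases before the start, is printed for MXD4 (chr4:2262295-2262359, minus strand), MNT (chr17:2401246-2401310, minus strand), MXD1 (chr2:69914859-69914923, plus strand) and MXD3 (chr5:177312938-177313002, minus strand). Capitals mark CACGTG. MXD1 and MXD3 are the members with the largest changes in level, and neither has these letters in this stretch.
MXD4: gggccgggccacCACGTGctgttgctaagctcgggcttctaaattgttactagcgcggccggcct
MNT: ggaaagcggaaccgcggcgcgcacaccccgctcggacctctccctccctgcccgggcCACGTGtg
MXD1: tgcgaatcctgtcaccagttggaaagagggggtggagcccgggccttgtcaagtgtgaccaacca
MXD3: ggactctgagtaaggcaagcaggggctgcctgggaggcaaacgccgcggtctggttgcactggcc

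The totals counted on genes, recovered from the FPKM values (reads per length of the gene and per size of the library), lay between 30974968 and 40843638 per library. Replicates correlated at 0.989 to 0.996 (Pearson, log2(FPKM + 1), across genes). The 10 mM libraries differed most among themselves, by 27.5 to 58.3 times the sampling variance per gene, against 14.6 to 22.3 in the control and 4.75 to 6.81 at 20 mM. Markers of the line were high, with VIM at 285 FPKM and MSN at 237 FPKM in the control and ESR1 and PGR under 0.02 FPKM. Of the genes listed as low in this line, ERBB2 (8.81 FPKM), EPCAM (3.75 FPKM) and GATA3 (2.03 FPKM) were nevertheless detected in the control, and CDH1 was at 0.365 FPKM. Of 12 markers of leukocytes, endothelium, fibroblasts and red cells, 8 had a mean under 0.1 FPKM in the control and 9 at each dose, and HBB was at 0 in every library. The 12 summed to 5.61 to 6.88 FPKM in the control libraries, 3.76 to 5.29 FPKM with 10 mM and 3.21 to 4.07 FPKM with 20 mM 2-DG, most of it from CD14, PECAM1 and COL1A1. Their part in the results was not tested. In bulk RNA, fewer cells of a kind and less RNA per cell cannot be told apart.

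MYC, MXD1 and MXD4 were higher and MXD3 was lower in cells given 2-DG at either dose, and MNT was higher at 20 mM. MAX, MXI1 and MGA passed no test. At 10 mM 2-DG 3 of the 8 genes were called higher and 1 lower than the control at an adjusted p under 0.05, which is 50% of the members. Of all genes tested 29.6% were called in that comparison, 12.1% higher and 17.5% lower. At 20 mM 2-DG 4 of the 8 were called higher and 1 lower, 62.5% of the members, against 37.0% of all genes, 15.4% higher and 21.6% lower. The balance of directions over all genes depended on scaling: at 20 mM 2544 were called higher and 3582 lower, and under upper-quartile scaling 3115 higher and 2672 lower. The numbers of members called in each direction were the same under both scalings tried. The members called were also those whose treated libraries did not overlap with the control libraries, 3 higher (17.8% of all genes) and 1 lower (22.7%) at 10 mM and 4 higher (23.3%) and 1 lower (29.9%) at 20 mM. The median log2 fold change of the 8 genes was 0.24 at 10 mM and 0.28 at 20 mM, beside -0.01 and -0.02 over all genes tested. The treated groups share the control libraries, so the comparisons are not independent of each other.

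**Figure D1:**
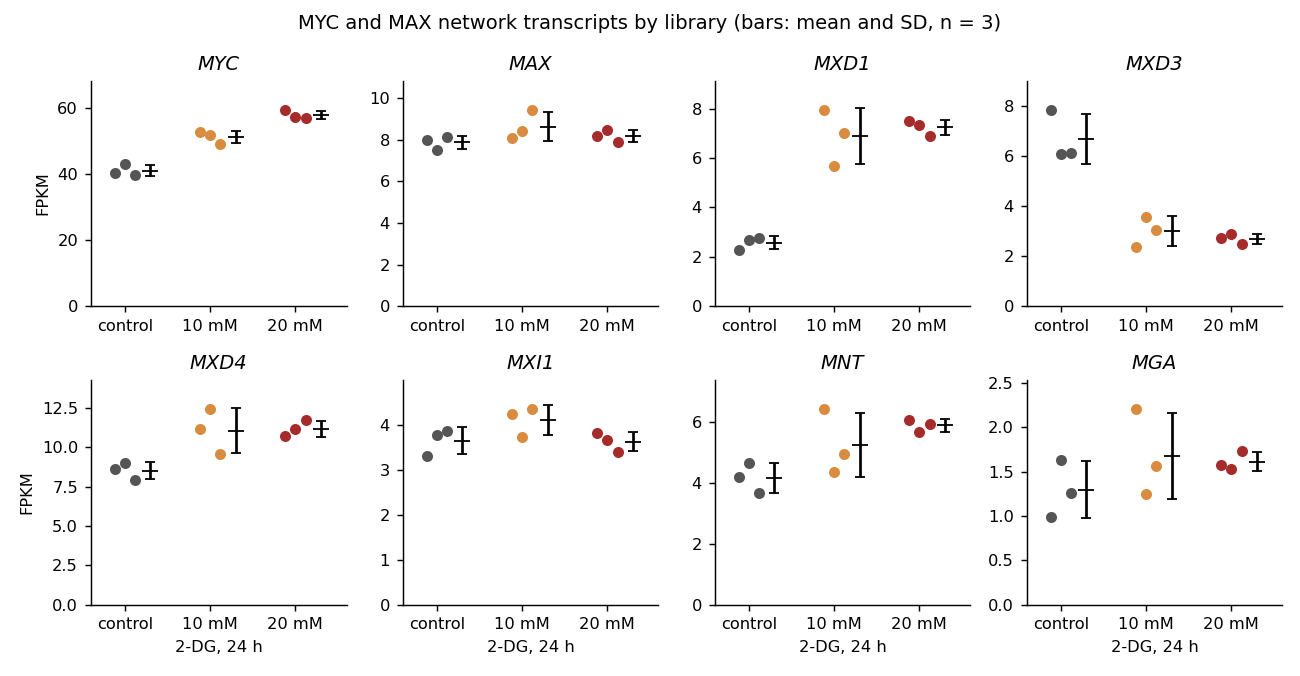
FPKM of each of the 8 genes (y axis, from 0, own scale per gene) in the 3 control, 3 10 mM and 3 20 mM 2-DG libraries (points), with the mean and SD of each group beside them. MYC and MXD1 lay higher and MXD3 lower in all 6 treated libraries than in any control library, while MAX, MXI1 and MGA overlapped between groups.

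MYC was the most abundant member by far. Its levels were 40.4, 42.8 and 39.7 FPKM in the control libraries, 52.6, 51.7 and 49.1 FPKM at 10 mM and 59.2, 57.2 and 56.9 FPKM at 20 mM 2-DG. The 3 groups did not overlap, and each 20 mM library was above each 10 mM library. The mean ± SD of 3 libraries rose from 41.0 ± 1.64 in the control to 51.1 ± 1.78 with 10 mM and 57.8 ± 1.21 FPKM with 20 mM, which is 1.25-fold and 1.41-fold. On the log2(FPKM + 1) scale the change from the control was 0.31 ± 0.05 (SE; limma adjusted p = 0.00182) at 10 mM and 0.49 ± 0.05 (SE; limma adjusted p = 8.88e-05) at 20 mM. With the same threshold, the call held in 16 of 16 alternative analyses at each dose, and so did those of MXD1 and MXD3.

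MAX, the shared partner of the other members, did not pass the test. It was at 7.97, 7.50 and 8.13 FPKM in the control, 8.07, 8.41 and 9.41 FPKM at 10 mM and 8.18, 8.46 and 7.90 FPKM at 20 mM. Treated and control libraries overlapped at both doses. The log2 fold change was 0.12 at 10 mM (95% interval -0.04 to 0.28, limma adjusted p = 0.25) and 0.05 at 20 mM (95% interval -0.11 to 0.21, limma adjusted p = 0.622). MYC per MAX, a ratio of levels per length, had a mean ± SD over 3 libraries of 5.22 ± 0.435 in the control, 5.96 ± 0.664 with 10 mM and 7.07 ± 0.262 with 20 mM. All 3 ratios at 20 mM lay above all control ratios, whereas the 10 mM ratios overlapped with them.

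MXD1, the founding MAD protein, showed the largest increase of the network. It was at 2.27, 2.68 and 2.78 FPKM in the control libraries, at 7.93, 5.69 and 7.03 FPKM at 10 mM, and at 7.49, 7.36 and 6.90 FPKM at 20 mM 2-DG. The lowest treated library was above the highest control library, and the treated groups overlapped each other. The mean ± SD of 3 libraries was 2.58 ± 0.266 FPKM in the control, 6.89 ± 1.13 with 10 mM and 7.25 ± 0.308 with 20 mM, a rise of 2.67-fold and 2.81-fold. The log2 fold change on the log2(FPKM + 1) scale was 1.13 ± 0.11 (SE; limma adjusted p = 6.8e-05) and 1.21 ± 0.11 (SE; limma adjusted p = 2.85e-05). In GENCODE 29, MXD1 shares 237 exon bases on the same strand with SNRNP27, a splicing factor gene at 5.70 FPKM in the control and 4.07 FPKM at 20 mM.

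MXD3 went the other way. Its levels were 7.84, 6.10 and 6.12 FPKM in the control, 2.38, 3.57 and 3.04 FPKM at 10 mM, and 2.72, 2.89 and 2.50 FPKM at 20 mM. No treated library reached the lowest control library. The mean ± SD of 3 libraries fell from 6.69 ± 1.00 FPKM in the control to 3.00 ± 0.596 with 10 mM and 2.70 ± 0.197 with 20 mM, to 0.448 and 0.404 times the control. The log2 fold change was -0.95 ± 0.13 (SE; limma adjusted p = 0.000513) at 10 mM and -1.05 ± 0.13 (SE; limma adjusted p = 0.000192) at 20 mM. MXD3 shares 1158 exon bases with PRELID1 on the opposite strand and 926 with RAB24 on its own strand. Whether counting used strand is not given in the sources used here, and without strand the reads of MXD3 and PRELID1 over those bases cannot be told apart. PRELID1, a mitochondrial lipid transfer gene, was at 54.8 FPKM in the control and 46.2 FPKM at 20 mM, 0.843 times the control, and RAB24, a small GTPase gene, was at 0.898 times the control. MXD3 was thus at a lower ratio to the control than either. These neighbors are named because they share exons with a member.

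**Figure D2:**
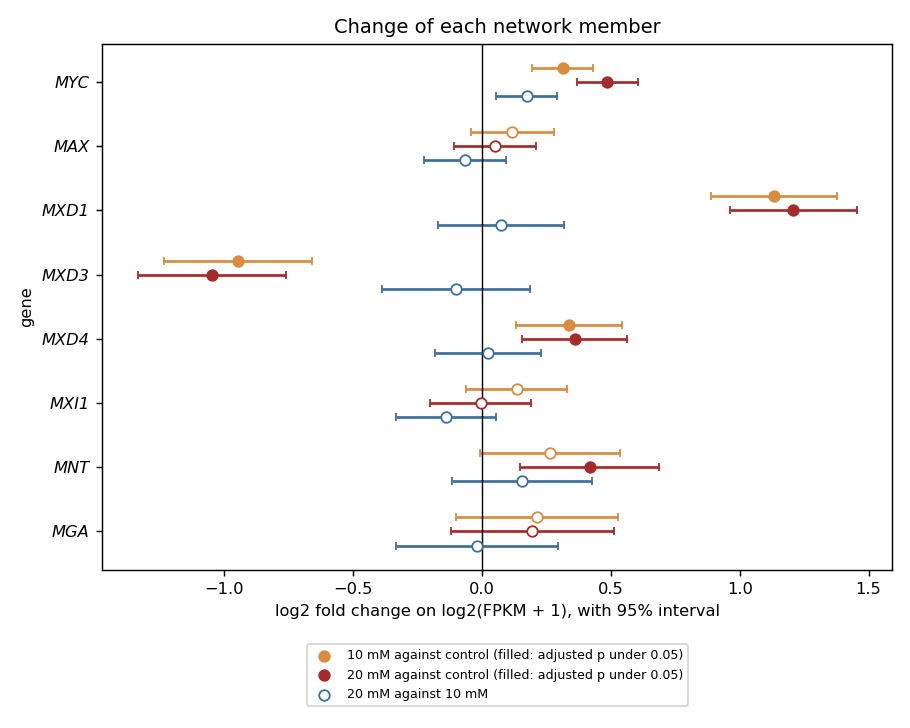
Log2 fold change on the log2(FPKM + 1) scale (x axis) of each of the 8 genes (y axis) for the 3 comparisons, as points with 95% intervals from limma, filled where the adjusted p was under 0.05. MXD1 lies near 1.2 to the right and MXD3 near 1 to the left at both doses, and no point of the comparison between doses is filled.

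MXD4 and MNT, the other members with an increase, changed less. MXD4, an MXD protein found in many resting tissues, was at 8.61, 9.03 and 7.92 FPKM in the control, 11.2, 12.4 and 9.57 FPKM at 10 mM and 10.7, 11.2 and 11.7 FPKM at 20 mM. All treated libraries lay above all control libraries. The log2 fold change was 0.34 ± 0.09 (SE; limma adjusted p = 0.0205) at 10 mM and 0.36 ± 0.09 (SE; limma adjusted p = 0.0121) at 20 mM. The call at 10 mM was lost without control replicate 3 (adjusted p = 0.0708) and without 10 mM replicate 2 (adjusted p = 0.0515), and with all genes above 0 in the test (adjusted p = 0.0524). At 20 mM it held in 16 of 16 alternatives.

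MNT, the broadly expressed MAX partner that competes with MYC in dividing cells, was at 4.19, 4.64 and 3.66 FPKM in the control, 6.42, 4.35 and 4.95 FPKM at 10 mM and 6.06, 5.65 and 5.92 FPKM at 20 mM. At 20 mM all libraries were above the control. At 10 mM replicate 2 lay inside the control range, and replicate 1 was the highest of the 9 libraries. The log2 fold change was 0.26 at 10 mM (95% interval -0.01 to 0.53, limma adjusted p = 0.134) and 0.42 ± 0.12 at 20 mM (SE; limma adjusted p = 0.0225). Without 10 mM replicate 2 the 10 mM change was 0.37 and passed the test (adjusted p = 0.0419). The 20 mM call was lost in 5 of 16 alternatives: without control replicate 1 (adjusted p = 0.0503), control replicate 3 (0.0811), 20 mM replicate 1 (0.0706) or 20 mM replicate 3 (0.062), and with all genes above 0 in the test (0.0595). The call for MNT thus depended on single libraries, and those for MYC and MXD1 did not.

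MXI1 and MGA did not pass the test at either dose. MXI1, the MXD protein also known as MXD2, was at 3.31, 3.76 and 3.86 FPKM in the control, 4.23, 3.72 and 4.34 FPKM at 10 mM and 3.81, 3.66 and 3.39 FPKM at 20 mM. Its log2 fold change had a 95% interval of -0.06 to 0.33 at 10 mM and -0.20 to 0.19 at 20 mM (limma adjusted p = 0.282 and 0.968). MGA, the largest and least abundant member, was at 0.995, 1.64 and 1.26 FPKM in the control, 2.21, 1.25 and 1.57 FPKM at 10 mM and 1.58, 1.53 and 1.73 FPKM at 20 mM. The groups overlapped, and 10 mM replicate 1 was again the highest library. The interval of its log2 fold change was -0.10 to 0.53 at 10 mM and -0.12 to 0.51 at 20 mM (limma adjusted p = 0.29 and 0.315), so a rise of a size like that of MXD4 could not be detected here. By mean FPKM, MGA was at 1.291 and 1.243 times the control, beside 1.299 and 1.315 times for MXD4. The pseudocount of 1 understates the change of a gene as low as MGA.

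Under the thresholds of the study for differential genes (unadjusted p under 0.05 and absolute log2 fold change over 1), MXD1 was called higher with either dose, and MXD3 was called lower with 20 mM. MXD3 missed the threshold with 10 mM at -0.95, but its log2 fold change there was -1.14 with a pseudocount of 0.1 and -1.16 in limma-voom, so the miss depends on the pseudocount. Leaving out 1 library gave -1.05 to -0.83 for MXD3 at 10 mM and -1.10 to -0.94 at 20 mM. The miss at 10 mM and the call at 20 mM thus also depended on single libraries. Of all genes, those thresholds called 0.579% higher with 10 mM, 0.966% higher with 20 mM and 1.96% lower with 20 mM.

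Between 20 mM and 10 mM 2-DG limma called 0 of the 8 members and 0.0% of all genes at an adjusted p under 0.05, and limma-voom on the recovered reads also called 0 members. At an unadjusted p under 0.05 there was 1 member, MYC, against 6.88% of all genes. MYC was 0.17 ± 0.05 higher at 20 mM on the log2 scale (SE; limma adjusted p = 0.477) and was the single member whose libraries did not overlap between doses, where 4.71% of all genes did not overlap in that direction. For MXD1 the difference between doses had a 95% interval of -0.17 to 0.32, for MXD3 of -0.39 to 0.19 and for MXD4 of -0.18 to 0.23. A further step between the doses was thus not detectable for these genes, within those bounds.

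The order of levels changed with treatment. In the control it ran from MYC through MXD4, MAX, MXD3, MNT, MXI1 and MXD1 to MGA. The neighbors MXD4 and MAX, MAX and MXD3, and MNT and MXI1 overlapped there. At 20 mM the order was MYC, MXD4, MAX, MXD1, MNT, MXI1, MXD3 and MGA, and no neighbors overlapped. At 10 mM the order was that of 20 mM, and MXD1 and MNT were the only pair of neighbors that overlapped. The order rests on the gene lengths behind the FPKM values. The length recovered for MAX was 6257 bases, against 4430 GENCODE exon bases, and that for MXD4 6873 against 7058. For MXI1 it was 5907 against 4607, and for MNT 8701 against 8728. With other lengths, close neighbors such as MAX and MXD4 could change places, which was not tested. The values of MYC per MAX rest on gene lengths too. MXD1 and MXD3 had exchanged places, MXD1 moving from rank 7 to rank 4 and MXD3 from rank 4 to rank 7.

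The ratio of the pair restates this exchange, since it is made of the same values. MXD1 per MXD3 was 0.29, 0.439 and 0.454 in the control libraries, 3.33, 1.59 and 2.31 at 10 mM and 2.76, 2.54 and 2.76 at 20 mM. The ratio was below 1 in every control library and above 1 in every treated library. Summed over the 5 MYC antagonists MXD1, MXD3, MXD4, MXI1 and MNT, the level was 25.6 ± 1.08 FPKM in the control, 30.3 ± 1.67 with 10 mM and 30.7 ± 0.184 with 20 mM (mean ± SD of 3 libraries). MXD1 made up 10.1% of that sum in the control and 22.7% and 23.6% at 10 mM and 20 mM, and MXD3 made up 26.1%, 9.97% and 8.82%. The share of MXD4 was 33.3%, 36.6% and 36.6%.

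Relative to MYC the summed antagonist transcript was lower at 20 mM. The summed antagonist level per MYC was 0.65, 0.612 and 0.613 in the control, 0.612, 0.576 and 0.589 at 10 mM and 0.52, 0.537 and 0.535 at 20 mM. The 20 mM libraries lay below all the others, and the highest 10 mM library met the lowest control library. On the log2 scale the difference from the control was -0.08 at 10 mM and -0.24 at 20 mM. The value at 10 mM depended on control replicate 1, without which it was -0.05. At 20 mM it was -0.19 without MXI1 in the sum and -0.23 with MGA added. These sums and ratios describe transcripts, rest on the gene lengths behind the FPKM values and were not tested.

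**Figure D3:**
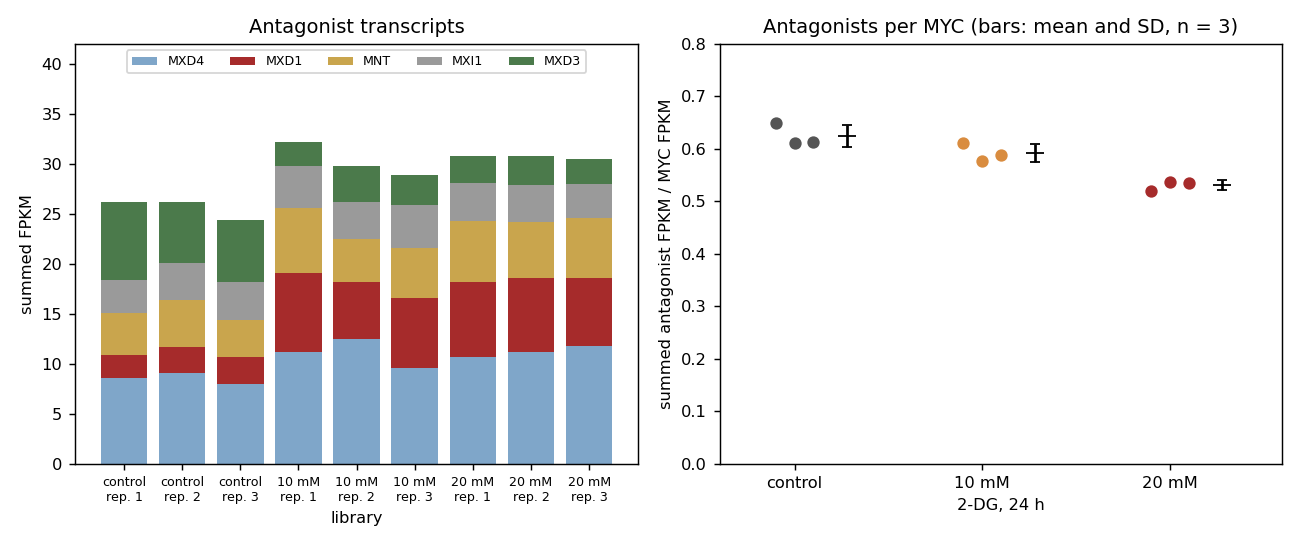
Left, FPKM of the 5 antagonists stacked for each of the 9 libraries (y axis from 0, summed FPKM). Right, that sum divided by the MYC level for each library (points, y axis from 0) with the mean and SD of each group. The MXD1 share widens and the MXD3 share narrows in the treated libraries, and the ratio is 0.625 in the control and 0.531 at 20 mM.

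The genes whose levels followed a member most closely over the 9 libraries were found by Pearson correlation of log2(FPKM + 1) among 5853 genes with a mean of at least 5 FPKM. The 9 points are 3 groups of 3, so a high value can come from the step between groups alone. Closest to MYC were SPSB1 (r = 0.996), at 13.5 FPKM in the control and 23.1 FPKM at 20 mM, STK40 (r = 0.994) and EFNB1 (r = 0.992). For MXD1 they were GFPT1 (r = 0.995), the entry enzyme of hexosamine synthesis, at 8.61 FPKM in the control and 23.3 FPKM at 20 mM, DNAJC3 (r = 0.994), an endoplasmic reticulum co-chaperone, at 6.35 and 19.8 FPKM, and PARM1 (r = 0.994). MXD3 was followed by CDKN2D (r = 0.999), an inhibitor of CDK4 and CDK6, at 43.3 FPKM in the control and 18.9 FPKM at 20 mM, by SLC25A11 (r = 0.998) and by HCFC1R1 (r = 0.997). MXD4 was followed by HAGHL (r = 0.983), TLCD3A and AGAP3, and MNT by RNF40 (r = 0.986), KDM6B and STK10.

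Of the other network genes, MLX, MLXIP (MondoA) and MLXIPL (ChREBP), which form the glucose-sensing arm of the network, were detected. MLX, the MAX-like partner, was at 22.5 FPKM in the control and 20.2 FPKM at 20 mM (log2 fold change -0.15, limma adjusted p = 0.0556) and passed the test only without control replicate 3 (adjusted p = 0.0353). MLXIP was at 7.56 and 7.68 FPKM and MLXIPL at 2.75 and 2.80 FPKM. MYCL was at 0.102 and 0.0609 FPKM, and MYCN, at 0 FPKM in the control and at 10 mM, was not tested. At each dose limma and limma-voom called 0 of the 4 genes tested. Of all genes limma called 29.6% at 10 mM and 37.0% at 20 mM. At an unadjusted p under 0.05 limma had 1 of the 4 at each dose. For that unadjusted threshold the share of all genes is not given here. Of the MYC paralogs MYC alone was expressed above 1 FPKM.

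The coactivators that MYC recruits were mixed. Of 15 genes, 1 was called higher and 4 lower at 10 mM, and 2 higher and 4 lower at 20 mM, which is 33.3% and 40% of the list against 29.6% and 37.0% of all genes. The median log2 fold change was -0.008 at 10 mM and -0.12 at 20 mM, beside -0.011 and -0.02 over all genes. RUVBL1 and RUVBL2, ATPases of the TIP60 and INO80 complexes, fell from 14.1 to 8.81 FPKM (log2 fold change -0.63) and from 92.3 to 61.4 FPKM (-0.57) at 20 mM. ACTL6A, an actin-like subunit shared by BAF and TIP60, fell from 19.2 to 11.8 FPKM (-0.66). KAT2A, the GCN5 acetyltransferase, rose from 25.7 to 35.9 FPKM (0.47). The number called higher was 3 at 10 mM without 10 mM replicate 2. At 20 mM it was 1 without control replicate 3 or any one 20 mM library, and 4 without 10 mM replicate 1 or 2. Under median-ratio and upper-quartile scaling 4 were called higher and 4 lower at 20 mM.

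The genes called in the corepressor through which the MXD proteins and MNT act were all lower, and most of its genes were not called. Of 16 SIN3 and histone deacetylase genes, 0 were called higher and 5 lower at each dose by limma (31.25%, against 29.6% and 37.0% of all genes), and limma-voom also called 0 higher. At an unadjusted p under 0.05 limma had 0 higher and 6 lower at 10 mM and 0 higher and 7 lower at 20 mM. The share of all genes under that unadjusted threshold is not given here, so these counts have no comparison. RBBP7, a histone-binding subunit, fell from 35.1 to 18.8 FPKM at 20 mM (log2 fold change -0.87). SAP30 fell from 21.2 to 13.7 FPKM (-0.59), SAP130 from 18.9 to 12.9 FPKM (-0.52) and the deacetylase HDAC2 from 9.30 to 6.57 FPKM (-0.44). HDAC1, the most abundant of them, went from 49.1 to 40.5 FPKM (-0.27, limma adjusted p = 0.00929), a call that was lost under upper-quartile scaling (adjusted p = 0.135). At 10 mM 3 rather than 5 were called lower without control replicate 1 and under both scalings. The share called was close to that of all genes at both doses.

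In PRC1.6, the complex of MGA, 1 of 10 genes was called higher and 4 lower at each dose, 50% of the list against 29.6% of all genes at 10 mM and 37.0% at 20 mM. RNF2, the E3 ligase RING1B, rose from 3.98 to 5.78 FPKM at 20 mM (log2 fold change 0.44). CBX3, which encodes HP1 gamma, fell from 26.2 to 17.0 FPKM (-0.58) and TFDP1, the E2F partner, from 38.4 to 27.8 FPKM (-0.45). TFDP2 fell from 1.71 to 0.889 FPKM, 0.521 times the control by mean FPKM but -0.52 on the log2(FPKM + 1) scale. The 4 lower calls at 10 mM were kept by none of the fits without 1 library, which gave 2 (without control replicate 3, 20 mM replicate 2 or 20 mM replicate 3) or 3, and CBX3 was called there in 7 of 16 alternatives. Without 10 mM replicate 2 the number called higher was 2 at each dose. Under upper-quartile scaling 2 were called higher and 2 lower at 10 mM, and 2 higher and 4 lower at 20 mM.

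Among the 15 genes that set how long the MYC protein lasts, 1 was called higher and 4 lower at 10 mM, and 1 higher and 5 lower at 20 mM, 33.3% and 40% of the list against 29.6% and 37.0% of all genes. Under upper-quartile scaling 2 were called higher and 4 lower at 20 mM. The largest changes were falls. AURKA, the mitotic kinase, which also shields MYC proteins from degradation, fell from 59.7 ± 2.78 FPKM in the control to 26.8 ± 2.30 with 10 mM and 21.1 ± 1.08 with 20 mM (mean ± SD of 3 libraries), with a log2 fold change at 20 mM of -1.46 (limma adjusted p = 6.79e-07). CIP2A, which protects MYC from the phosphatase PP2A, fell from 9.62 to 4.06 and 3.02 FPKM (-1.40 at 20 mM, limma adjusted p = 1.92e-05). SKP2, a ubiquitin ligase subunit, fell from 0.771 to 0.315 FPKM at 20 mM. That is 0.409 times the control by mean FPKM, but -0.43 on the log2(FPKM + 1) scale. SET, the most abundant of the list and another PP2A inhibitor, was at 67.9 and 58.3 FPKM (-0.21, limma adjusted p = 0.0567) and passed the test in 5 of 16 alternatives, among them without control replicate 2 (adjusted p = 0.0423) and without 10 mM replicate 3 (adjusted p = 0.0425). The gene called higher was GSK3B, a kinase that marks MYC for degradation, at 1.94 and 2.91 FPKM, named after its value was seen. It was not called at 10 mM without control replicate 1 (adjusted p = 0.0556), which left 0 genes higher, and 2 genes were called higher there without 10 mM replicate 2. AURKA, CIP2A and SKP2 are also genes of cell division. MYC protein was not measured here.

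Of the genes that MYC is known to induce, more were called lower than higher. Of 40 such genes, 3 were called higher and 13 lower at 10 mM, and 5 higher and 13 lower at 20 mM, which is 40% and 45% of the list against 29.6% and 37.0% of all genes. Over all genes lower calls also outnumbered higher ones in this fit, 17.5% against 12.1% at 10 mM and 21.6% against 15.4% at 20 mM. Their median was -0.17 with 10 mM and -0.14 with 20 mM on the log2 scale, beside -0.01 and -0.02 over all genes. SHMT2, the mitochondrial serine enzyme, rose from 78.3 ± 4.04 FPKM in the control to 175 ± 11.5 with 10 mM and 187 ± 0.581 with 20 mM (mean ± SD of 3 libraries), with a log2 fold change of 1.25 at 20 mM (limma adjusted p = 8.4e-07). CCND2, a D-type cyclin, rose from 0.515 to 1.55 FPKM, 3.00-fold by mean FPKM but 0.75 on the log2(FPKM + 1) scale. In the other direction NOP56, a box C/D ribonucleoprotein gene of ribosome production, fell from 51.8 to 32.2 FPKM (-0.67), and HSPE1, a mitochondrial chaperonin, from 11.6 to 7.02 FPKM (-0.65). LDHA, the lactate dehydrogenase and the most abundant of the list, fell from 377 to 273 FPKM (-0.47, limma adjusted p = 0.000371). Without 20 mM replicate 1 or 2 the number called higher at 20 mM was 3. Leaving out 1 library gave 9 to 14 lower at 10 mM and 10 to 16 lower at 20 mM. Under upper-quartile scaling 3 were called higher and 9 lower at 10 mM, and 5 higher and 10 lower at 20 mM. Over all genes that scaling gave 3115 higher and 2672 lower at 20 mM.

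Genes that MYC is known to repress moved in both directions. Of 15, 12 were tested (CDKN2B, GAS1 and CEBPA were too low), and 4 were called higher and 5 lower at 10 mM, and 4 higher and 6 lower at 20 mM. That is 75% and 83.3% of those tested, against 29.6% and 37.0% of all genes. Leaving out 1 library gave 4 to 6 lower at 10 mM and 4 to 7 lower at 20 mM. Under upper-quartile scaling 4 were called higher and 4 lower at 20 mM. The median was -0.23 with 10 mM and -0.24 with 20 mM, beside -0.01 and -0.02 over all genes. DDIT3, which encodes the stress factor CHOP, rose from 27.2 ± 3.09 FPKM in the control to 64.1 ± 11.3 with 10 mM and 77.1 ± 2.37 with 20 mM (mean ± SD of 3 libraries), a log2 fold change of 1.48 at 20 mM (limma adjusted p = 1.22e-05). GADD45A, a growth arrest and DNA damage gene, rose from 31.4 to 56.2 FPKM (0.82), and CDKN1A, the p21 cell cycle inhibitor, from 44.8 to 73.1 FPKM (0.69). THBS1, which encodes a secreted inhibitor of angiogenesis, fell from 57.0 to 27.6 FPKM (-1.01), and CCND1, the most abundant of the list, from 77.4 to 49.2 FPKM (-0.64). Across the 7 lists the genes called at 20 mM and named here kept their calls, at the same threshold, in all alternatives they could be tested in, except HDAC1. Between 20 mM and 10 mM 0 of the 112 genes of the lists tested were called by limma or limma-voom, and 9 had an unadjusted p under 0.05 in limma. The same unadjusted threshold was met by 6.88% of all genes tested.

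**Figure D4:**
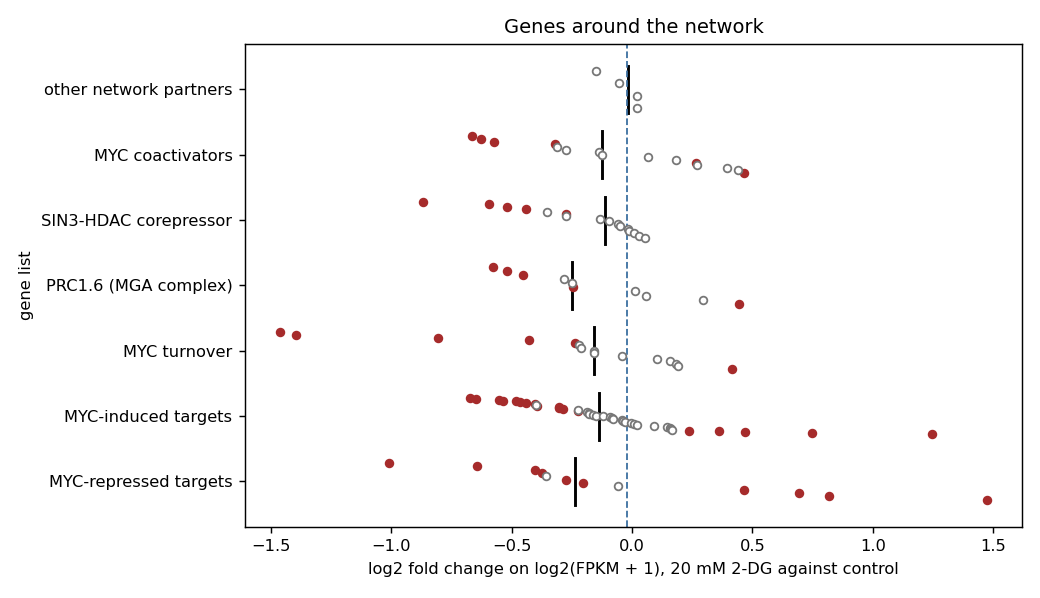
Log2 fold change on the log2(FPKM + 1) scale at 20 mM 2-DG against the control (x axis) of every tested gene of 7 lists around the network (y axis), with filled points at an adjusted p under 0.05, black bars at each list's median and a dashed line at the median of all genes tested (-0.02). AURKA (-1.46) and CIP2A (-1.40) are the points farthest to the left and DDIT3 (1.48) and SHMT2 (1.25) those farthest to the right.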

How the data were processed

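RNA of 9 MDA-MB-231 libraries was sequenced by the authors after SMARTER library preparation. The authors deposited FPKM values, 1 file per library, on GRCh38 (hg38) per the labels. Aligner, counting tool, strand setting and annotation are not given in the sources used here, and the DEGs of the study were called with DESeq2. Here limma 3.58.1 in R 4.3.3 was fitted to log2(FPKM + 1) over all 9 libraries, with a variance trend, 6 residual degrees of freedom and Benjamini-Hochberg adjustment over 16570 genes. The pseudocount of 1 understates the change of low genes. Whole reads were recovered from the FPKM steps with GENCODE 29 exon lengths as the start, within a tolerance of 0.02, for 32805 of 32806 genes above 0. They made up 99.8% to 99.9% of the totals, are not the authors' counts, and set the filter (10 reads or more in 3 libraries, scaled to the median depth, and 15 or more in all). With 30974968 to 40843638 reads per library, counting error was small beside the spread between libraries. For pairs of libraries in the same condition, the reads differed by 4.75 to 58.3 times the sampling variance per gene (mean chi-square). These values were described without a p-value. The fit was tested on simulated data.

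The members and the 7 gene lists, written from general knowledge, were chosen with earlier results of these data known. Named are all members, per list up to 4 genes called at 20 mM with the largest change and no overlap with the control, and the most abundant gene, and per called member the 3 most alike genes. Some genes that these rules would name are not reported here. Alternatives were another pseudocount (0.1), median-ratio and upper-quartile scaling, other filters, a replicate block, limma-voom on the recovered reads, the study's thresholds and leaving out each library.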

Additional observations from a re-analysis of the deposited data

How the results depend on the processing

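No result changed direction and call under any alternative. Under the study's thresholds, the members called fell at 10 mM from 3 to 1 higher and from 1 to 0 lower, and at 20 mM from 4 to 1 higher. Of 112 list genes tested, those called then fell at 10 mM from 10 to 2 higher and from 35 to 3 lower. At 20 mM they fell from 13 to 2 higher and from 37 to 3 lower. At an adjusted p under 0.05, 12.1% of all genes were higher and 17.5% lower at 10 mM, and 15.4% and 21.6% at 20 mM. The share lower at 10 mM under the study's thresholds is not given here. Most changes were under 1 on the log2(FPKM + 1) scale, which understates low genes. CCND2 (2.76-fold and 3.00-fold by mean FPKM) and SKP2 (0.455 and 0.409 times the control) were thus not called. Leaving out 1 library gave 2 to 3 members higher and 1 to 1 lower at 10 mM, 3 to 4 higher and 1 to 1 lower at 20 mM, and 0 to 0 between the doses. For the lists it gave 9 to 14 higher and 27 to 38 lower at 10 mM, 10 to 16 higher and 30 to 43 lower at 20 mM, and 0 to 0 between the doses. The log2 difference of antagonists per MYC ranged from -0.10 to -0.05 at 10 mM, from -0.25 to -0.21 at 20 mM and from -0.18 to -0.13 between the doses.

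The replicate numbers did not pair the libraries, since same-numbered libraries deviated together by correlations from -0.41 to 0.29. The highest correlations were across numbers, 0.52 for control replicate 1 with 10 mM replicate 2 and 0.49 for control replicate 2 with 10 mM replicate 1. What those libraries shared was not tested. With the replicate number as a block, 3 members were called higher and 1 lower at 10 mM and 4 higher and 1 lower at 20 mM, as without it, and for the lists 10 higher and 32 lower at 10 mM and 13 higher and 35 lower at 20 mM. Median-ratio and upper-quartile scaling moved the median of all genes by less than 0.1 on the log2 scale. Under them 30 and 27 genes of the lists were called lower at 10 mM in place of 35, and 32 and 30 at 20 mM in place of 37, with 16 and 17 higher in place of 13. HDAC1, HDAC2, CBX3 and PRELID1 lost their 10 mM calls under both. Depth did not limit the members, each with at least 392 reads.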

Other observations

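PVT1, a long noncoding RNA gene beside MYC, was looked at after its values were seen. It was at 0.711, 0.732 and 0.678 FPKM in the control libraries, 1.34, 1.26 and 1.09 FPKM at 10 mM and 1.35, 1.34 and 1.24 FPKM at 20 mM 2-DG. All treated libraries lay above all control libraries, and the doses overlapped. The log2 fold change on the log2(FPKM + 1) scale was 0.38 ± 0.07 (SE; limma adjusted p = 0.00343) at 10 mM and 0.44 ± 0.07 (SE; limma adjusted p = 0.00121) at 20 mM, and the call held in 16 of 16 alternatives at each dose. The ratio of mean FPKM was 1.74 and 1.86, beside 1.25 and 1.41 for MYC. The difference between these genes was not tested.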
